A study of Mus musculus with 3 samples.

Results

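Expressed zinc finger protein genes were taken as all genes named Zfp followed by a number alone, Zfp36 left out, whose mean log2 value over the 3 arrays was at least 6. By this rule 103 of 316 Zfp genes were members, among 19938 genes with a probe set of their own, and 213 Zfp genes lay below the minimum. Members were thus chosen by their measured log2 values on these arrays, so their levels are a description, and the differences between the arrays, which come from the same values, are given with no test. The study measured transcripts in peritoneal macrophages from male Angptl4-/- mice (C57Bl/6J) drawn into the cavity by 4% thioglycollate, on 1 Affymetrix array per group. All 3 groups carried the deletion, and the groups were PBS, intralipid (a triglyceride emulsion, 0.5 mM) and intralipid plus recombinant ANGPTL4 (2.5 µg/mL, with 1.5 h of pre-incubation), each for 6 h. The labels' protocol also names a pre-incubation with the lipase inhibitor Orlistat, but the label of none of these arrays lists it as an agent. Each array held RNA pooled from 3 samples, so no spread between cultures could be measured, and "higher" and "lower" below compare these arrays only. The protein ANGPTL4 is released by cells and blocks lipoprotein lipase, which frees fatty acids from such triglyceride.

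Zinc finger proteins of this kind mostly carry tandem C2H2 fingers, short folds that hold a zinc ion and read DNA bases, and a few use such folds to bind RNA or protein. Many of the mammalian ones also carry a KRAB box, which recruits the corepressor Trim28 (KAP1) and, through it, the histone methyltransferase Setdb1, the heterochromatin proteins Cbx1, Cbx3 and Cbx5 and the deacetylase complex NuRD. That machinery silences retroelements, imprinted regions and genes. The symbol Zfp is a naming convention that joins KRAB repressors, other transcription factors and proteins of RNA metabolism.

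The labelled cell type was borne out by its markers, with 10 of 10 macrophage markers at a mean log2 value of at least 6 and medians of 10.36 (PBS), 10.65 (intralipid) and 10.64 (intralipid plus ANGPTL4). At that level stood 0 of the markers of neutrophils (5 measured), mast cells (4), mesothelial cells (4), T and NK cells (6) and B cells (4), and eosinophil markers had 1 of 3. Of 7 fibroblast markers, 5 reached it, with a linear sum of 2329 on the PBS array, 2318 with intralipid and 2304 with ANGPTL4, so the arrays differed little in that sum. The part of these cells in the Zfp signal was not tested. In such bulk RNA, fewer cells of a type and less RNA per cell cannot be told apart.

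Most expressed Zfp genes were less than 1.5-fold apart between any pair of arrays. Exact ties are counted here too, but are not read as equal amounts of transcript. The same value stood on all 3 arrays for 29 of 103 members (28.2%), against 19.6% of the 7701 genes with a mean of at least 6. A difference of at least 1.5-fold between any pair of arrays was seen for 11 members (10.7%), against 17.5% of those genes, and one of at least 2-fold for 3 members (2.91%), against 6.65%. The 3 were Zfp667, Zfp655 and Zfp710, of which Zfp667 reached the minimum of 6 only through its intralipid value. With 1 array per group these shares carry no test, and they do not show that Zfp genes as a family differ from other genes. The members' median log2 value was 6.71 on the PBS array, 6.60 with intralipid and 6.72 with ANGPTL4, and their brightest and dimmest means were 8.89 and 6.01. All genes with a mean of at least 6 had medians of 7.63, 7.58 and 7.68.

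**Figure D1:**
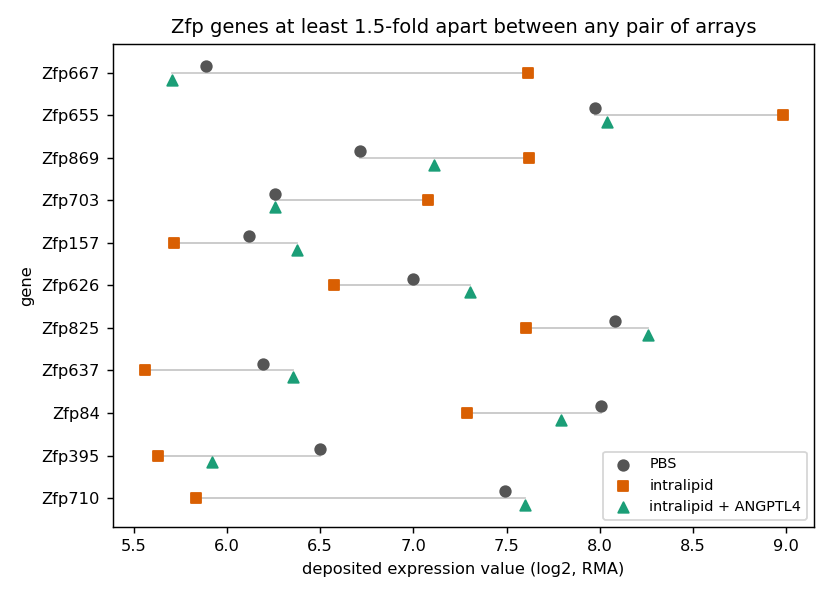
Deposited log2 expression values (horizontal axis) of the 11 Zfp genes at least 1.5-fold apart between any pair of arrays, ordered by the difference of intralipid from PBS. Each symbol is 1 array, circles PBS, squares intralipid and triangles intralipid plus ANGPTL4, with no error bars since each group had 1 array. The intralipid array is the outermost point of every gene, highest in 4 and lowest in 7.

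How the lipid load altered these transcripts was read from the intralipid array against PBS. At least 1.5-fold higher with intralipid were 4 members (3.88%), against 5.61% of the 7701 genes, and at least 1.5-fold lower were 4 (3.88%), against 6.35%. Zfp667, Zfp655, Zfp869 and Zfp703 were the higher ones and Zfp710, Zfp395, Zfp84 and Zfp637 the lower ones. The median difference was 0.00 over the members and 0.00 over all those genes, and the robust SD of the differences (from the central 68% of genes) was 0.19 and 0.23. At a lower threshold, 7 members were at least 25% higher (6.8%, against 9.87%) and 16 at least 20% lower (15.5%, against 16.1%). Counting differences of any size, 27 members were higher (25.6% of the 7701 genes were), 41 lower (48.9%) and 35 identical (25.5%). This split turned with the scaling, to 63 higher, 40 lower and 0 identical after cyclic loess. The 7701 genes turned as well, from 1973 higher and 3764 lower to 4026 higher and 3675 lower.

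Zfp667 (probe set 10549842), a KRAB zinc finger repressor also known as Mipu1, had the largest difference of the members upward. Its log2 value was 5.89 with PBS, 7.62 with intralipid and 5.70 once ANGPTL4 was added, so only the intralipid array stood high. The transcript was 3.31-fold higher with intralipid than with PBS and 3.77-fold lower with ANGPTL4 than under intralipid only.

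Zfp655 (probe set 10527475), whose human counterpart binds the signalling protein VAV1, had values of 7.97 (PBS), 8.98 (intralipid) and 8.04 (with ANGPTL4). Intralipid was 2.01-fold above PBS and ANGPTL4 1.92-fold below intralipid. Again the arrays with PBS and with ANGPTL4 lay close together, 0.06 apart on the log2 scale.

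For Zfp869 (probe set 10579079) the values were 6.71, 7.62 and 7.11 in the same order of arrays, 1.88-fold higher with intralipid. The ANGPTL4 array lay between the others here, 1.43-fold below intralipid and 1.32-fold above PBS, and that was the only member at least 25% above PBS with ANGPTL4. Zfp703 (probe set 10571111), a transcriptional corepressor with little of the usual finger array, had 6.26, 7.08 and 6.26, which is 1.76-fold higher with intralipid and an identical value on the other arrays.

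Of the members that were lower with intralipid, Zfp710 (probe set 10554370) stood farthest down, at 7.49 with PBS, 5.83 with intralipid and 7.60 with ANGPTL4. It was 3.16-fold lower with intralipid than with PBS and 3.39-fold higher with ANGPTL4 than under intralipid only. Zfp395 (probe set 10416004), a DNA-binding factor, had 6.50, 5.63 and 5.92, a 1.83-fold difference. Only its PBS value was above 6, so it reached the minimum, with a mean of 6.02, through that array. Its ANGPTL4 value stayed 1.49-fold below PBS, the largest difference from PBS on that array among the members. A second Zfp395 probe set showed less of this, at 6.06, 5.97 and 5.84, so the probe sets of this gene disagree, and with their mean the difference of intralipid from PBS was -0.48 on the log2 scale in place of -0.87.

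Zfp84 (probe set 10551760) had values of 8.01, 7.29 and 7.79, or 1.65-fold lower with intralipid and 1.42-fold higher with ANGPTL4 than under intralipid only. The last of the 4, Zfp637 (probe set 10541094), had 6.19, 5.56 and 6.35, or 1.55-fold lower with intralipid. It is also one of the members nearest the minimum level, with a mean of 6.03.

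The promoters of Zfp667, Zfp655, Zfp869 and Zfp710 are shown because these genes carried the largest differences and had an entry in the RefSeq table (GRCm38.p6), which held 81 of the 103 members. Zfp703 and Zfp395 had none there. Each run is the 250 bases before the annotated start, 5′ to 3′ on the gene's strand, at chr7:6286330-6286579 (+) for Zfp667, chr5:145231492-145231741 (+) for Zfp655, chr8:69716903-69717152 (-) for Zfp869 and chr7:80024564-80024813 (+) for Zfp710. Capitals mark matches on either strand to 9 motifs, which were TGACTCA (AP-1), TGACGTCA (cAMP response element), TGATGCAA (C/EBP-ATF), CACGTG (E-box), ACGTG (hypoxia response core, also found inside the E-box), GCGTGGGCG (EGR), GGANTTTCC (NF-kB, N being any base), TGCGCATGC (NRF1) and CCAAT.
Zfp667: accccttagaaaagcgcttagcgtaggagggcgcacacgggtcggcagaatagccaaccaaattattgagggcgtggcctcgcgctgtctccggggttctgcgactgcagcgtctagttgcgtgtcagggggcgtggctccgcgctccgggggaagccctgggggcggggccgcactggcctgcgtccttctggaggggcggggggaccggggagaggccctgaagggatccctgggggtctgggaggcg
Zfp655: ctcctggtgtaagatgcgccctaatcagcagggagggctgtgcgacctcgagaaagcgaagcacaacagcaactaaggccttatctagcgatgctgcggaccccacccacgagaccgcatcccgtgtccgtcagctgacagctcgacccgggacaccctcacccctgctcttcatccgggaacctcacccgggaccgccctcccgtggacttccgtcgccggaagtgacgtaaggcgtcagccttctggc
Zfp869: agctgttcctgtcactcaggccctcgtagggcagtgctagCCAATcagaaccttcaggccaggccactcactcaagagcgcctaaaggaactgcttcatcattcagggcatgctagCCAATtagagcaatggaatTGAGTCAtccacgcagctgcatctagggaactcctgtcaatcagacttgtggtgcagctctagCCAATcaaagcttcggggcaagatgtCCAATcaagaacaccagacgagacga
Zfp710: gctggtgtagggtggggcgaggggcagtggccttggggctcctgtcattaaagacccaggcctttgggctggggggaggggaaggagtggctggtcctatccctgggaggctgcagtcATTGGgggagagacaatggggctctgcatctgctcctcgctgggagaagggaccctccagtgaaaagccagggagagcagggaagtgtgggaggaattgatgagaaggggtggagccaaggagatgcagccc
Zfp869 held 1 AP-1 match, which began 115 bases before the start, and 4 CCAAT matches, and Zfp710 held 1 CCAAT match on the reverse strand. In Zfp667 and Zfp655 none of the 9 motifs was found in this window. These matches are letters in a window and show no binding.

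Across the 81 member promoters the AP-1 letters occurred in 5 (6.17%), against 3.08% of 6303 promoters of genes with a mean of at least 6 and 4.43% of all 27025. CCAAT occurred in 37 (45.7%), against 35.5% and 34.5%. The hypoxia core was in 18 (22.2%, against 23.9% and 16.6%), the E-box in 7 (8.64%, against 9.61% and 6.05%), the cAMP response element in 2 (2.47%, against 3.01% and 1.62%) the NRF1 letters in 3 (3.7%, against 3.09% and 1.34%) and the NF-kB letters in 4 (4.94%, against 1.05% and 1.05%). The C/EBP-ATF and EGR letters were in 0 of the 81, and in 0.555% and 1.08% of the 6303 (0.818% and 0.54% of all). Member promoters had a median GC content of 54.4% and 13 CpG pairs, against 60.4% and 17 for the 6303 and 52.0% and 6 for all. The 4 printed promoters held 22 (Zfp667), 21 (Zfp655), 6 (Zfp869) and 2 (Zfp710) CpG pairs.

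Members with smaller differences upward with intralipid were Zfp451, Zfp52 and Zfp110. Zfp451, a SUMO ligase and the only ligase of the list that was a member, had 6.88 with PBS, 7.44 with intralipid and 7.09 with ANGPTL4, or 1.46-fold higher with intralipid. For Zfp52 the values were 6.28, 6.80 and 6.45, or 1.43-fold. Zfp110, which binds the neurotrophin receptor p75, had 7.57, 7.98 and 7.59, or 1.33-fold. With the 4 genes past 1.5-fold, these make up the 7 at least 25% higher.

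Among the 16 members at least 20% below PBS with intralipid, the 12 not yet given ranged from 1.27-fold (Zfp106) to 1.40-fold (Zfp90) lower. Zfp90, a KRAB protein, had 6.67, 6.18 and 6.48. Zfp687, which works with chromatin readers, had 6.72 with PBS, 6.30 with intralipid and 6.72 with ANGPTL4, and Zfp790 had 6.84, 6.43 and 6.75. Zfp207, a spindle assembly factor, had 8.20, 7.84 and 8.36, and Zfp106, an RNA-binding protein, 7.63, 7.29 and 7.61. In these 5 genes the intralipid array was the lowest of the 3. Zfp87 (6.96, 6.58 and 6.96), Zfp111 (6.26, 5.90 and 6.27) and Zfp971 (8.26, 7.88 and 8.41) had the same order. The symbols Zfp111 and Zfp971 also stand on other probe sets with several symbols, which were left out. Whether other genes add to the signal used here was not tested. Zfp764 was the exception, at 6.35 with PBS and 6.00 on both other arrays.

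**Figure D2:**
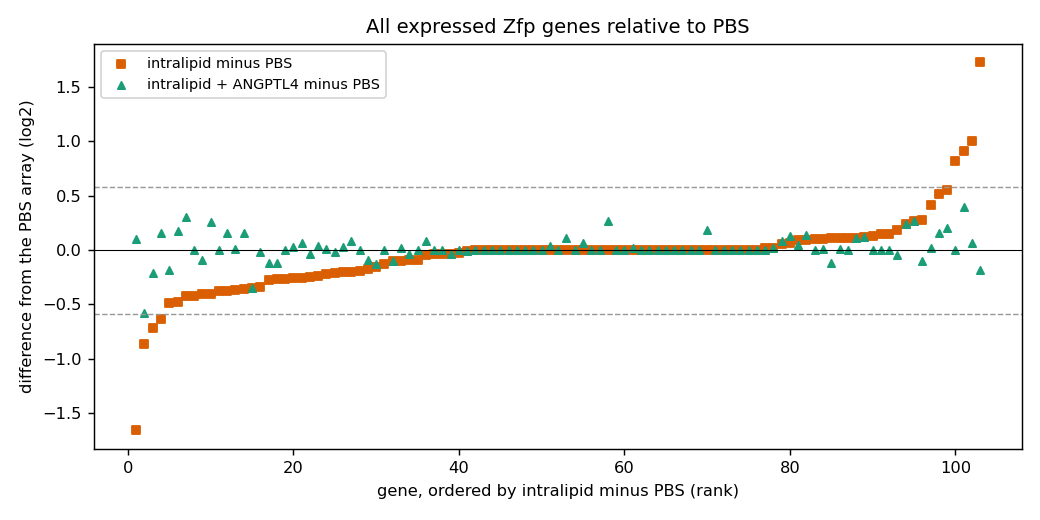
Log2 difference from the PBS array (vertical axis) for all 103 Zfp genes, ordered along the horizontal axis by the difference of intralipid from PBS. Squares are the intralipid array and triangles the array with intralipid plus ANGPTL4; dashed lines mark 1.5-fold. Squares range from -1.66 to 1.73 and triangles from -0.58 to 0.40; both use the same PBS array.

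Whether ANGPTL4 altered Zfp transcripts under the lipid load was read from intralipid plus ANGPTL4 against intralipid only. At least 1.5-fold higher with ANGPTL4 were 5 members (4.85%), against 9.34% of the 7701 genes, and at least 1.5-fold lower were 3 (2.91%), against 5.39%. The higher ones were Zfp710, Zfp637, Zfp626, Zfp157 and Zfp825, and the lower ones Zfp667, Zfp655 and Zfp703. At least 25% higher were 12 (11.7%, against 20.0%) and at least 20% lower 8 (7.77%, against 9.53%). The median difference was 0.00 over the members and 0.02 over those genes. This comparison and the first share the intralipid array, so a high or low value there moves both in opposite directions.

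The genes Zfp626, Zfp157 and Zfp825 passed 1.5-fold in this comparison alone. Zfp626 (probe set 10551423) had 7.0 with PBS, 6.57 with intralipid and 7.30 with ANGPTL4, which is 1.66-fold higher with ANGPTL4 than under intralipid only. Zfp157 (probe set 10526842) had 6.12, 5.71 and 6.37, or 1.58-fold. Zfp825 (probe set 10358432) had 8.08, 7.60 and 8.26, or 1.57-fold, and its second probe set had 6.01, 5.33 and 6.42, so both ran the same way. In all 3 genes the array with ANGPTL4 was the highest and the intralipid array the lowest. Zfp637 was 1.73-fold higher with ANGPTL4 than under intralipid only.

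Set directly against PBS, the array with intralipid plus ANGPTL4 showed 0 members at least 1.5-fold higher, against 2.65% of the 7701 genes, and 0 at least 1.5-fold lower, against 0.61%. At least 25% higher was 1 member (0.971%, against 6.04%), Zfp869, and at least 20% lower were 2 (1.94%, against 2.83%), Zfp395 and Zfp764. The value was identical on both arrays for 45 members (43.7%), against 34.5% of those genes. The robust SD was 0.07 over the members and 0.11 over all those genes. After centring each array on its median or quantile normalization, Zfp395 passed 1.5-fold, which makes 1 lower. Upward, Zfp626 was 1.23-fold, Zfp157 1.20-fold and Zfp451 1.15-fold above PBS. Zfp407, whose difference was 0.00 between intralipid and PBS, had 7.63, 7.63 and 7.90, and its second probe set 6.93, 6.84 and 7.13, so in both the ANGPTL4 array was the highest. Zfp617 (6.16, 6.43 and 6.43) and Zfp800 (6.94, 7.18 and 7.18) were higher by the same amount on both intralipid arrays.

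**Figure D3:**
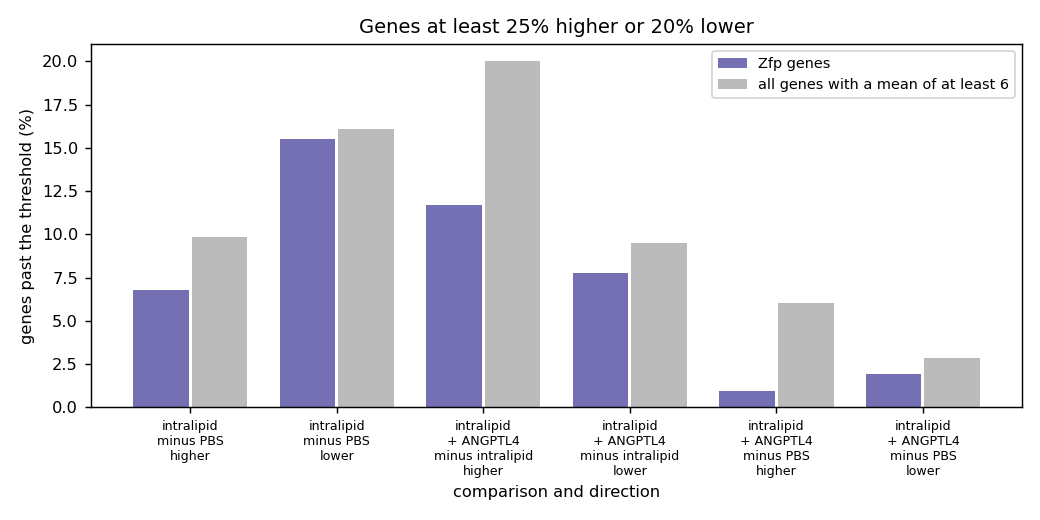
Percentage of genes at least 25% higher or at least 20% lower in each comparison, for the 103 Zfp genes (purple) and for all 7701 genes with a mean log2 value of at least 6 (grey). Bars carry no error, since each group had 1 array; the share of Zfp genes lies below that of all genes in each of the 6 pairs, most nearly level for lower with intralipid (15.5% and 16.1%).

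Of 20 genes listed for a known role in transcription, 14 were members, and 1 of them (Zfp703) was at least 1.5-fold higher with intralipid and 0 lower, against 5.61% and 6.35% of the 7701 genes, so this count is near that of genes at large. Zfp148, which binds GC-rich promoters, had 8.08, 8.18 and 8.09 with PBS, intralipid and ANGPTL4, and Zfp281, a repressor known from stem cells, 7.92, 7.65 and 7.81. Zfp384 had 8.00, 8.02 and 8.02. Zfp217, which works with the corepressor CtBP, had 6.79, 6.52 and 6.67. Those 4 genes stayed within 0.28 on the log2 scale across the arrays. Zfp687, given above, is also of this list and had its lowest difference of intralipid from PBS, -0.42. Others ran from Zfp335, identical at 6.14 on all arrays, through Zfp219 (6.28, 6.38 and 6.28), Zfp131 (5.99, 6.08 and 6.13), Zfp263 (7.11, 7.17 and 7.24) and Zfp609 (6.01, 6.16 and 6.01) to Zfp362 (6.36, 6.14 and 6.34) and Zfp516 (6.81, 6.99 and 6.76). Zfp516 is known as an activator of thermogenic genes in fat. Zfp410, an activator of the NuRD gene Chd4, was identical at 7.67 on all arrays.

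Of 11 genes listed for roles in RNA, ribosomes or mitosis, 8 were members, and 0 were at least 1.5-fold apart in any comparison, against 17.5% of the 7701 genes, a share that says little over so few genes. Besides Zfp207 and Zfp106 given above, Zfp706 had 8.73, 8.53 and 8.76, with 8.47, 8.34 and 8.46 on its second probe set. Zfp638, an RNA-binding protein, had 7.07 with PBS and 7.19 on both intralipid arrays, and Zfp330 had 8.50 with PBS and 8.61 on both. Zfp830, a splicing protein, had 6.56, 6.47 and 6.58. The ribosome assembly factor Zfp622 was identical at 6.64 on all arrays and Zfp326, of a complex that couples transcription to splicing, at 6.22.

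KRAB proteins that silence retroelements or imprinted regions were represented by 2 of 7 listed genes. Zfp809, which directs Trim28 to integrated retroviruses, had 6.82 with PBS, 6.57 with intralipid and 6.78 with ANGPTL4. Zfp445, a guardian of imprints, had 8.40, 8.27 and 8.40. In both the intralipid array was the lowest, by less than 20%.

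The corepressor partners of the KRAB proteins were measured for 23 of 24 listed genes, of which 8 lay at least 20% below PBS with intralipid and 0 at least 25% above it, against 16.1% and 9.87% of the 7701 genes. Their median difference was -0.13, against 0.00 over the 7701 genes. Under the 4 scalings run, all of the same 3 arrays, it was -0.11 to -0.17, against -0.04 to 0.01 over those genes. Hdac2, a NuRD deacetylase, passed 1.5-fold, with 8.46, 7.78 and 8.64, and after centring each array on its median 3 partners did. Hdac1 had 8.94, 8.37 and 9.06, and Setdb1, the methyltransferase, 7.47, 6.89 and 7.52. With ANGPTL4 these 3 genes were at least 1.5-fold above intralipid only (Hdac2 1.82-fold, Hdac1 1.61-fold, Setdb1 1.54-fold), against 9.34% of the 7701 genes, and 2 partners were after quantile normalization. Trim28 itself had 8.37, 8.33 and 8.45. Between the array with ANGPTL4 and PBS, 0 partners were 25% higher or 20% lower, against 6.04% and 2.83% of the 7701 genes. Over so few genes that count says little. The 23 include Uhrf1, whose mean of 4.92 lay below the minimum of 6 and whose value was the same on all arrays.

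**Figure D4:**
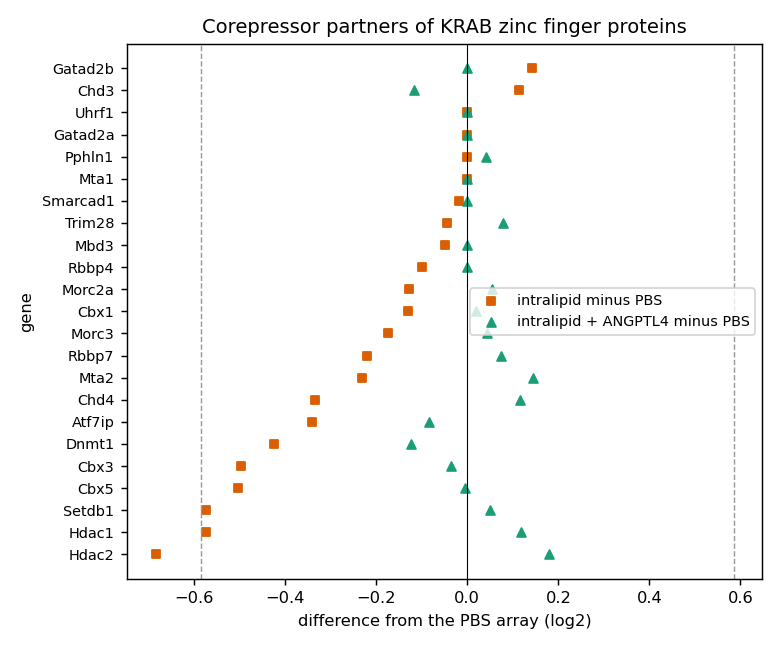
Log2 difference from the PBS array (horizontal axis) of 23 corepressor partner genes, ordered by the difference of intralipid from PBS. Squares are intralipid and triangles intralipid plus ANGPTL4, 1 array each; dashed lines mark 1.5-fold. Hdac2 lies past the dashed line on the lower side with intralipid, and all triangles lie within 0.18 of PBS.

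Other zinc finger families were counted the same way, beside shares of 5.61% higher and 6.35% lower over the 7701 genes for intralipid against PBS. The families were taken by symbol alone, so the Zbtb genes include Zbtb8os. Of 22 Zbtb genes with a mean of at least 6, 4 were at least 1.5-fold above PBS with intralipid and 0 below, and of 10 Klf genes 3 were higher and 0 lower. Of 10 Zfp genes with a letter suffix, Zfp36l1 and Zfp36l2 included, 1 was higher and 2 lower. The 8 Zscan and Zkscan genes had 0 in either direction, and of 14 Zc3h genes 1 was higher and 0 lower. After centring each array on its median, 1 Zbtb gene and 1 Zc3h gene were lower as well. Between ANGPTL4 and intralipid only (9.34% higher and 5.39% lower over the 7701 genes), 2 Zbtb genes were higher and 3 lower, 0 Klf genes higher and 3 lower, and 1 Zc3h gene higher and 1 lower. Of the letter-suffix genes 2 were higher and 2 lower. Against PBS (2.65% and 0.61%), the array with ANGPTL4 had 0 Zbtb or Klf genes in either direction and 0 letter-suffix genes higher and 1 lower. It had 2 Zc3h genes higher and 0 lower. Zc3h12c, the larger of these 2, had 7.23 with PBS, 6.67 with intralipid and 8.97 with ANGPTL4, or 3.33-fold above PBS and 4.93-fold above intralipid only with ANGPTL4, a larger difference than any member had, and it is named here after its values were seen. Zfp36, the mRNA-destabilizing protein tristetraprolin that the symbol rule left out, had 8.40 with PBS, 9.86 with intralipid and 8.42 with ANGPTL4. Its relative Zfp36l2 had 9.49, 10.19 and 9.51, and Zfp36l1 6.70, 6.67 and 5.99. These CCCH proteins bind RNA, unlike most members. No test of a difference between the families was possible with 1 array per group.

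The remaining members lay within 25% above and 20% below PBS on the intralipid array. Zfp532 had 6.47 with PBS, 6.75 with intralipid and 6.36 with ANGPTL4, and among the genes slightly higher with intralipid, Zfp954 (6.42, 6.56 and 6.42), Zfp513 (7.10, 7.23 and 7.10) and Zfp62 (7.06, 7.17 and 7.06) held the same value on the other arrays. Zfp639, Zfp787, Zfp512 and Zfp212 were higher than PBS by 0.06 to 0.11 on the log2 scale. On the lower side, Zfp414 had 7.16, 6.89 and 7.16, Zfp715 6.54, 6.28 and 6.56, Zfp654 6.41, 6.19 and 6.42, and Zfp946 6.18, 5.99 and 6.18. In these genes too the intralipid array was the lowest. Zfp652 (7.22, 7.12 and 7.12) and Zfp317 (6.13, 6.10 and 6.10) held 1 value on both intralipid arrays. Zfp646, Zfp511, Zfp524, Zfp704, Zfp146, Zfp292 and Zfp251 had differences of intralipid from PBS between -0.20 and -0.04. Zfp719, Zfp740 and Zfp397 were identical with PBS and intralipid and higher with ANGPTL4, by 0.19, 0.11 and 0.06.

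The 29 members with 1 value on all arrays ran from Zfp866 at 6.05 to Zfp644 at 7.83. Besides those named elsewhere, they were Zfp592, Zfp24, Zfp180, Zfp277, Zfp367, Zfp653, Zfp386, Zfp369, Zfp358, Zfp768, Zfp142, Zfp839, Zfp771, Zfp943, Zfp113, Zfp408, Zfp935, Zfp691, Zfp938 and Zfp236. The values are equal to the last deposited decimal, and whether these transcripts were truly level was not tested. Such exact ties are common on these arrays. They stood on all 3 arrays for 19.6% of the 7701 genes, and between PBS and intralipid plus ANGPTL4 for 34.5%. An equal value is thus not read here as an equal amount of transcript. Of the 6 members with a second probe set, Zfp319 had 6.36, 6.37 and 6.36 on the brighter one and 4.90, 4.32 and 4.90 on the other, and Zfp664 had 7.35, 7.12 and 7.39 against 5.59 on all arrays. For these genes, as for Zfp395, the probe sets disagree, while those of Zfp706, Zfp825 and Zfp407 had the same array highest or lowest.

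Zfp genes often lie in clusters that arose by duplication, and 7 pairs of members were next to each other among protein-coding genes in the RefSeq table. Differences varied among the pairs. Zfp329 had 6.27, 6.01 and 6.33, while its neighbour Zfp110 ran the other way as given above. Zfp747 (6.17, 6.08 and 6.17) and its neighbour Zfp764 were both lower with intralipid, and the 4 genes Zfp777, Zfp746, Zfp444 and Zfp865, all in such pairs, had differences of -0.01 to 0.00 between intralipid and PBS.

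The members with the brightest probe sets were Zfp991, Zfp871, Zfp706, Zfp330 and Zfp445, though brightness depends on the probes and does not rank transcripts. Zfp991 had 8.88, 8.88 and 8.90 on a probe set with its symbol alone. Its symbol also stands on other probe sets with several symbols, which were left out. Whether other genes add to its signal was not tested. Zfp871 had 8.75, 8.72 and 8.75. Just inside the minimum stood Zfp953 (mean 6.01), Zfp395 (6.02) and Zfp637 (6.03), and just outside Zfp709 (5.99), Zfp574 (5.98) and Zfp958 (5.96).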

How the data were processed

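Values are log2 expression per probe set, made by the authors with RMA per the submitters' processing notes, for 3 arrays of pooled RNA (35556 probe sets). The sources used here do not give the RMA version, chip definition or genome build. Per the labels' protocols, 100 ng of RNA with an integrity number above 8 was labelled per array, from cells cultured 2 days after a lavage 3 days after thioglycollate.

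Probe sets with 1 gene symbol in GEO's platform annotation were used, the brightest per gene, as deposited. All 103 members matched a RefSeq gene identifier with the same symbol. With 1 array per group no test was run. Members were counted at 1.5-fold, 2-fold and a lower threshold (25% higher, 20% lower) beside all 7701 genes with a mean of at least 6. Folds are 2 to the power of log2 differences. The number of arrays limits the precision. Counting was tested on simulated data. Members and lists were chosen with earlier results of these data known. The named genes are those at least 1.5-fold apart, the brightest 5, those nearest the minimum and the fixed role lists; others were named after their values were seen. Protein sequences, planned for grouping the members by finger number and KRAB box, were not used here, and the 9 promoter motifs were chosen after the values were seen. Alternatives used Python 3.11.15, R 4.3.3 and limma 3.58.1 (quantile, cyclic loess).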

Additional observations from a re-analysis of the deposited data

How the results depend on the processing

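The counts of members 1.5-fold apart were recomputed under other scalings, thresholds and memberships. For intralipid against PBS (4 higher, 4 lower), a minimum mean of 7 (37 members) gave 2 and 1, a threshold of 2-fold 2 and 1, and 25% up or 20% down 7 and 16. For intralipid plus ANGPTL4 against intralipid (5 higher, 3 lower), a minimum mean of 5 (194 members) gave 9 higher, a minimum of 7 gave 1 and 1, 2-fold 1 and 1, and 25% up or 20% down 12 and 8. Against PBS (0 and 0), centring and quantile normalization each gave 1 lower, and 25% up or 20% down gave 1 higher and 2 lower. These changes follow from fewer or more genes, or from a threshold passed by little. With each gene taken as the mean of its probe sets (101 members), 3 were lower with intralipid. Zfp395 then fell below the minimum mean and was no longer a member, and its difference also no longer passed 1.5-fold. After seeing the data, the 5 members whose symbol also stands on a several-symbol probe set (Zfp646 with a tubulin gene) were left out. In another such run the 29 identical on all arrays were left out. Neither step could change a count, since none of these members was among the 11 at least 1.5-fold apart. Of 132 recomputed differences of the 11 named genes, 0 reversed and 3 moved by more than the spread over genes, all with the mean over probe sets. They were Zfp395 with -0.48 (intralipid against PBS) and -0.40 (intralipid plus ANGPTL4 against PBS), and Zfp825 with 0.29 (intralipid plus ANGPTL4 against PBS). Only Zfp395 and Zfp825 of the 11 had a second probe set, so the mean over probe sets could not move the other named genes. No paired analysis was possible because each group had 1 array. Leaving out a replicate was not possible for the same reason.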

Other observations

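A total of 39 probe sets carried a Zfp symbol together with others and were left out of the gene counts. Of the 22 with a mean log2 value of at least 6, 4 lay at least 1.5-fold below PBS with intralipid and 0 above it, against 6.35% and 5.61% of the 7701 genes. With ANGPTL4, 6 lay at least 1.5-fold above intralipid only and 0 below it, against 9.34% and 5.39%. Their median differences were -0.22, 0.29 and, for ANGPTL4 against PBS, 0.03. Several of these probe sets cover the same genes, and some carry a symbol of another family, such as Tubb4b (2 probe sets with Zfp646, at 8.45 and 8.41 with PBS, 7.76 on both with intralipid, and 8.75 and 8.66 with ANGPTL4). A probe set of Zfp932, a KRAB silencer of retroelements, and Gm15446 had 7.14, 6.30 and 7.32 in the same order, and a second one 6.77, 6.25 and 6.95.

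Among the 213 Zfp genes below the minimum mean, 1 was at least 2-fold apart in any comparison. Zfp948 had 4.98 with PBS, 6.37 with intralipid and 5.32 with ANGPTL4, or 2.62-fold higher with intralipid than with PBS and 2.07-fold lower with ANGPTL4 than under intralipid only.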
